A study of Mus musculus with 16 samples.

Results

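The 77 genes described here are the mouse odorant receptors numbered Olfr470 to Olfr542 and Olfr692 to Olfr720 that the array annotation names. They were chosen by number alone, with no measured value, and make up 7.13% of the 1080 odorant receptor genes measured. The first number range holds 55 of them and the second 22, and each is represented by a single probe set. The set is meant to hold the class II receptors of chromosome 7, and 73 genes answer to that in the RefSeq table. Olfr720 lies on chromosome 14, and Olfr692, Olfr503 and Olfr504 carry class I family names (MOR36, MOR34 and MOR40). MOR is an older naming of mouse olfactory receptors by sequence family, in which class I covers families up to 42. The set is therefore called the 77 numbered receptors below, and these 4 are pointed out where they appear.

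Odorant receptors are G protein-coupled receptors in the cilia of olfactory sensory neurons. A mature neuron expresses a single receptor gene from a single allele, so the RNA of a receptor in a tissue follows mainly the number of neurons that chose it. Receptor genes lie in clusters along the chromosomes, where neighbours often arose by duplication. Class I receptors resemble those of fish and form a single cluster on chromosome 7. Class II receptors, the larger group in mammals, lie in clusters on many chromosomes, several of them on either side of the class I cluster. In bulk libraries, fewer cells that express a receptor and less of its RNA per cell cannot be told apart.

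The series measured RNA of fluorescence-sorted cells of the olfactory mucosa in S100a5-tauGFP mice on C57BL/6, a line in which GFP reports S100a5, a calcium-binding protein gene that olfactory neurons turn up when odors stimulate them. The 24 mice of both sexes, 7 to 12 weeks old, were housed singly in chambers of clean flowing air (3.1 L per minute) for 40 h, and after 26 h received pulses of 10 s every 20 min. The pulses were of isoamyl acetate, a banana-smelling ester, in the odor groups and of filtered air in the vehicle groups. Mice were pooled by 3, and the 8 pools were each split by the sort into libraries that carry GFP+ or GFP- in their titles. The 16 arrays thus form 4 groups of 4: odor titled GFP+, odor titled GFP-, vehicle titled GFP+ and vehicle titled GFP-. All animals carried the reporter, and no group without it was measured.

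S100a5 went against the titles. It averaged 15.49 ± 0.31 in odor titled GFP+, against 16.75 ± 0.18 in odor titled GFP- (log2 signal, SD, n = 4), a difference of -1.25 (adjusted p = 0.000222). In vehicle its mean was 15.21 ± 0.47 in titled GFP+, against 16.39 ± 0.20 in titled GFP- (difference -1.18, adjusted p = 0.000442). In the labels, the cell type field of each of the 16 libraries names the GFP sign that its title does not. The titles are used throughout, a sort difference is the signal of titled GFP+ less that of titled GFP-, and each direction between sorts would reverse were the cell type field right. Signals of different probe sets cannot be set against each other, so levels are compared only within a gene. A difference of 1 on the log2 scale is a change by a factor of 2, and called means an adjusted p below 0.05 in limma. The median negative control of an array, between 5.15 and 5.67, served as a floor, a soft one because the controls spread widely. Of the 77 genes, 51 were above the floor in all 16 libraries, 19 in some and 7 in none (Olfr485, Olfr498, Olfr503, Olfr504, Olfr512, Olfr513 and Olfr514).

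Most of the 77 numbered receptors were lower in libraries titled GFP+. In odor 49 were called lower and 2 higher, where 9.86% of all 22206 tested probe sets were called lower and 11% higher. In vehicle 45 were called lower and 7 higher, against a background of 7.16% lower and 10.2% higher. How far these shares exceed the background depends on the scaling. With every array centred on its median, 59 of the 77 were lower in odor and 57 in vehicle, but so were 61.6% of all probe sets in odor and 62.5% in vehicle. The median difference of the 77 was -1.21 in odor and -1.15 in vehicle, while that of all named genes was -0.14 in odor and -0.12 in vehicle. The 2 comparisons use different libraries, and 44 receptors were called lower in both of them. The 2 called higher in both were Olfr487 and Olfr495, 20 were called in neither, and 0 were called in opposite directions. The share of all probe sets called alike in both treatments was not counted, so these joint counts are descriptions without a background. Each pool's own difference pointed the same way in many genes: 46 were lower in titled GFP+ in 8 of 8 pools (15.1% of all probe sets), 5 were higher in 8 of 8 (11.9% of all), and 26 were mixed. The 4 libraries titled GFP+ lay wholly below the 4 titled GFP- for 46 receptors in odor (background 11.3%) and for 46 in vehicle (background 12%). They lay wholly above for 2 in odor (background 10.5%) and 6 in vehicle (background 11.3%). At an unadjusted p below 0.05 there were 60 receptors in odor (33.3% of all probe sets) and 59 in vehicle (30.1%). The differences ran from -5.82 to 4.13 in odor and from -5.80 to 4.35 in vehicle, against a median SD within groups of 0.39.

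**Figure D1:**
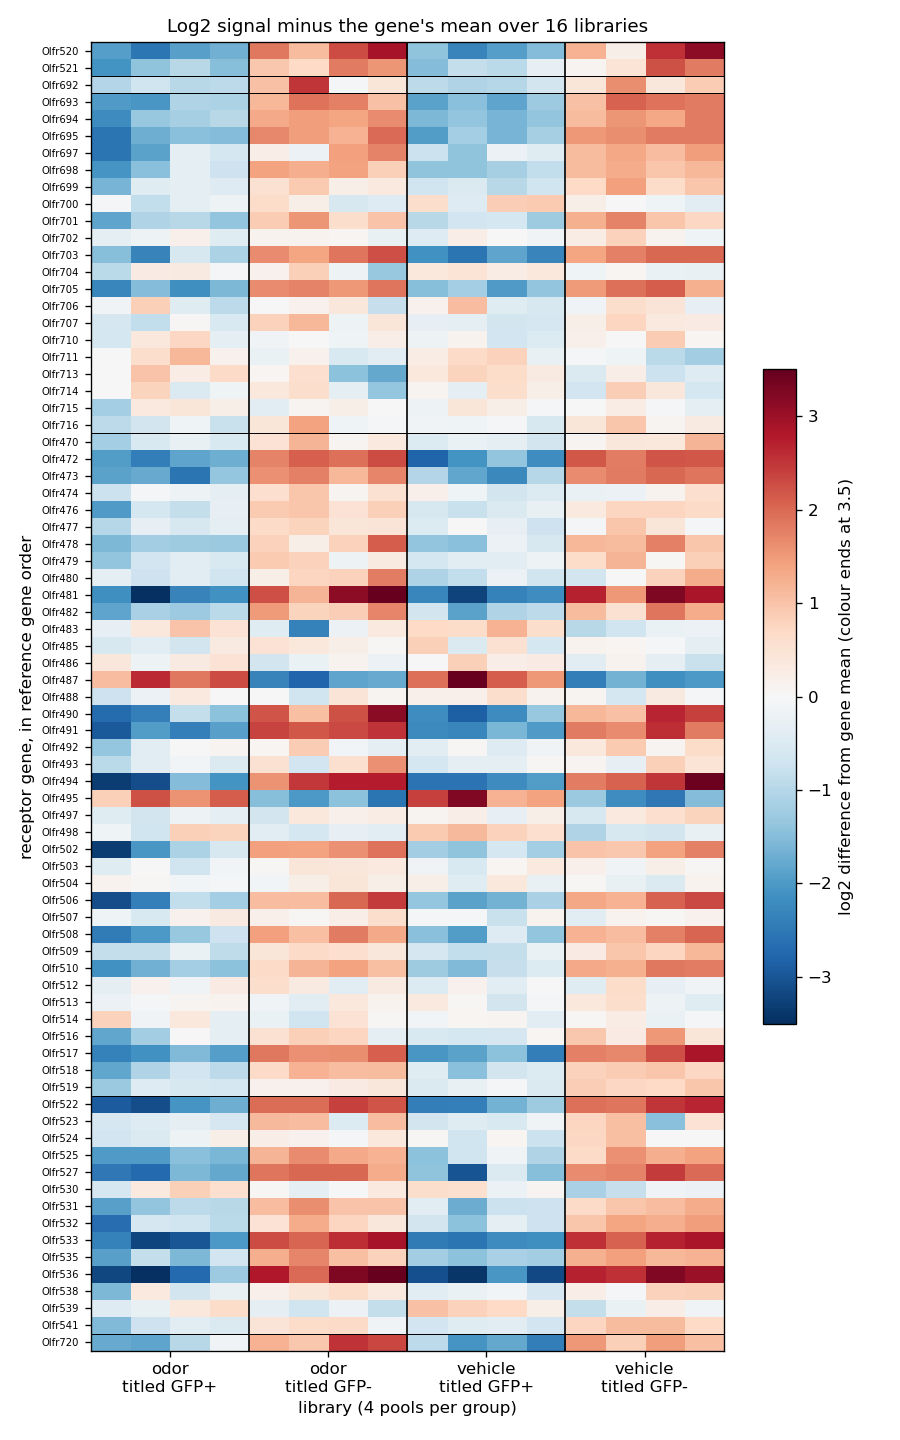
Log2 signal of each of the 77 numbered receptors minus that gene's own mean over the 16 libraries, with genes in reference order down the page and the 4 libraries of each group side by side. Horizontal lines part stretches of neighbouring genes, and the colour scale ends at 3.5. Most rows are blue in both groups titled GFP+ and red in both groups titled GFP-, and Olfr487 and Olfr495 show the reverse.

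Markers of other cells moved with the titled sort as well. All 9 measured neutrophil and macrophage markers were called higher in titled GFP+ in odor and in vehicle. Their mean signal per library was 13.33 to 14.69 in odor titled GFP+, against 6.07 to 7.74 in odor titled GFP-, and 13.49 to 13.97 in vehicle titled GFP+, against 5.93 to 7.34 in vehicle titled GFP-. Of 10 immature olfactory neuron markers, 6 were higher in odor and 7 in vehicle, with means of 12.17 to 12.95 in odor titled GFP+ against 10.45 to 10.50 in odor titled GFP-. All 5 markers of globose basal and cycling cells, all 5 of lymphocytes and all 5 of microvillar cells were also higher, as were 6 of 7 of sustentacular cells, in each treatment. Bowman's gland markers were higher in 2 of 4 in each treatment, glia and fibroblast markers in 1 of 3 each, the measured red cell marker in 1 of 1, and horizontal basal (1 of 4) and endothelial (1 of 3) markers in odor, with 0 of these lists' markers lower. The 14 mature neuron markers moved little: 1 was lower and 0 higher in each treatment, with medians of -0.20 in odor and -0.12 in vehicle. The part of these cells in the receptor differences was not tested. With every array centred on the mature neuron markers, 45 of the 49 receptors called lower in odor and 42 of the 45 in vehicle kept their call.

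The calls among other odorant receptors were read beside these. Of the 1002 others, 417 were called lower and 238 higher in odor (41.6% and 23.8%), and 397 lower and 240 higher in vehicle (39.6% and 24.0%). Among the 77 the share called lower was larger and the share called higher smaller, at 63.6% lower and 2.60% higher in odor and 58.4% lower and 9.09% higher in vehicle. The class I receptors Olfr543 to Olfr691 of the same chromosome, 111 genes, had 44 lower and 19 higher in each treatment, and medians of -0.71 in odor and -0.48 in vehicle. The 107 receptors Olfr829 to Olfr986 of chromosome 9 had 55 lower and 21 higher in odor, 54 lower and 21 higher in vehicle, and medians of -0.99 in odor and -1.06 in vehicle. The differences between these sets are descriptions and were not tested.

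The size of the difference varied widely among the receptors called lower. In odor 45 were lower by over 1, 32 by over 2, 20 by over 3 and 7 by over 4 on the log2 scale. The same counts in vehicle were 41, 30, 18 and 7. The share of all probe sets past each cut was not counted. The lower quartile of the differences of the 77 was -3.01 in odor and -2.84 in vehicle. It was -1.75 and -1.71 for the 1002 other odorant receptors, whose lowest differences were -6.22 and -5.96. For all named genes it was -0.33 and -0.30. A receptor's difference was much the same in both treatments: across the 77 genes Pearson's r was 0.98, given as a description because genes share libraries, and the median gap between treatments was 0.24. The sign was shared by 70 of the 77.

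**Figure D2:**
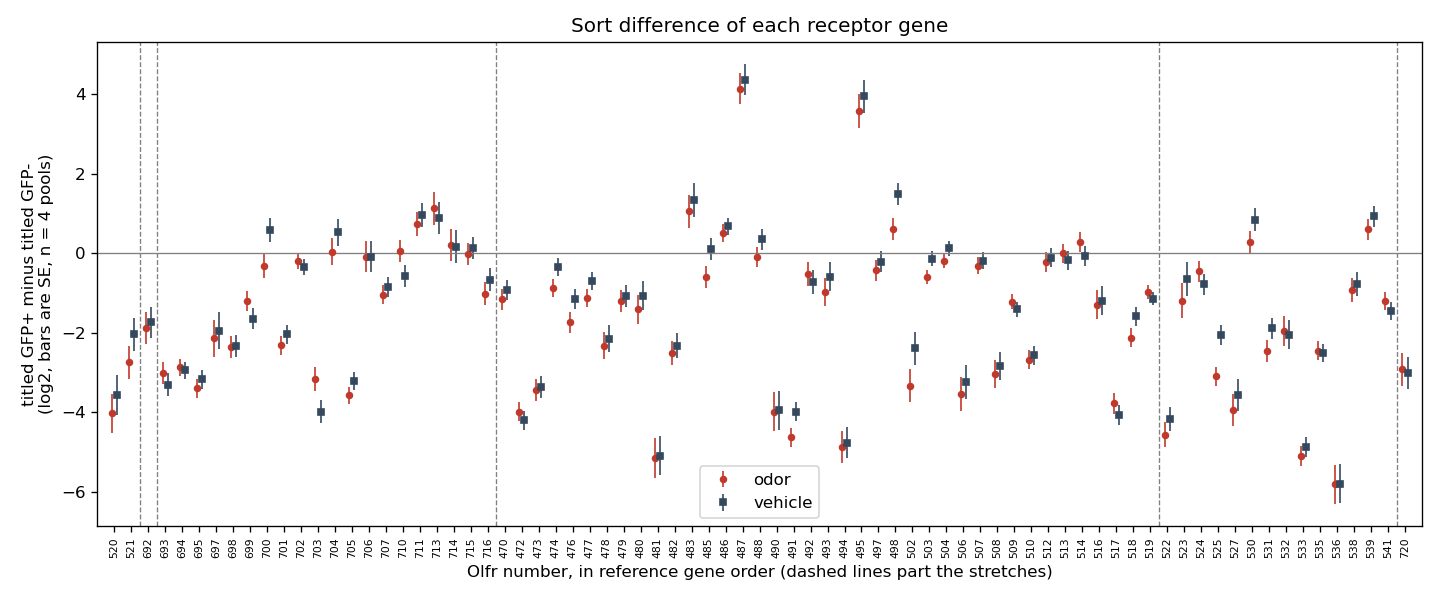
Sort difference of each of the 77 numbered receptors, titled GFP+ minus titled GFP- on the log2 scale, in odor (circles) and in vehicle (squares), with SE bars (n = 4 pools) and genes in reference order. Dashed lines part the stretches. Points of both treatments lie close together for each gene, most of them below 0, and neighbouring genes often lie far apart.

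The reference order of the genes gives 5 stretches on chromosome 7, where a new stretch was begun at a gap of over 500000 bases to the next of these genes. They run in the order Olfr520 to Olfr521, Olfr692 alone, Olfr693 to Olfr716 (20 genes), Olfr470 to Olfr519 (39 genes) and Olfr522 to Olfr541 (14 genes). In the stretch Olfr522 to Olfr541, 10 of 14 genes were called lower in odor and 10 in vehicle, with medians of -2.21 in odor and -1.97 in vehicle. The stretch Olfr470 to Olfr519 had 24 lower and 2 higher of 39 in odor, 21 lower and 5 higher in vehicle, and medians of -1.17 and -1.07. The stretch Olfr693 to Olfr716 had 11 lower and 0 higher of 20 in odor, 10 lower and 1 higher in vehicle, and medians of -1.03 and -0.77. All 7 genes that never passed the floor lie in the stretch Olfr470 to Olfr519.

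The stretch Olfr522 to Olfr541 holds the receptor with the largest sort difference of the set, Olfr536 of family MOR252. Its signals were 8.23, 7.07, 8.68 and 10.14 in odor titled GFP+, against 14.21, 13.38, 14.68 and 15.13 in odor titled GFP-. In vehicle they were 8.33, 8.0, 9.38 and 8.25 in titled GFP+, against 14.10, 13.98, 14.64 and 14.43 in titled GFP-. The sorts were far apart in every pool, by 4.99 to 6.31, and no library titled GFP+ came near the range of those titled GFP-. The difference was -5.82 (SE 0.50, 56.5-fold lower, adjusted p = 1.29e-07) in odor and -5.80 (SE 0.50, 55.6-fold lower, adjusted p = 1.42e-07) in vehicle. Olfr533 of the same family stood at 9.65, 8.79, 9.01 and 9.99 in odor titled GFP+, against 14.30, 14.06, 14.58 and 14.90 in odor titled GFP-. In vehicle it stood at 9.52, 9.46, 9.82 and 9.87 in titled GFP+, against 14.55, 14.06, 14.70 and 14.87 in titled GFP-. These groups too were wide apart, and the difference was -5.10 (SE 0.25, adjusted p = 1.73e-10) in odor and -4.88 (SE 0.25, adjusted p = 3e-10) in vehicle.

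The third MOR252 receptor, Olfr530, did not share this pattern. It had 10.11, 11.03, 11.52 and 11.28 in odor titled GFP+, against 10.73, 10.37, 10.72 and 11.04 in odor titled GFP-, and these groups overlap. In vehicle it had 11.31, 11.26, 10.48 and 10.79 in titled GFP+, against 9.55, 9.89, 10.58 and 10.48 in titled GFP-. Its differences of 0.27 in odor (adjusted p = 0.551) and 0.83 in vehicle (adjusted p = 0.0609) were not called. The vehicle difference passed the threshold with arrays centred on mature neuron markers (adjusted p = 0.0148) and with quantile normalization (adjusted p = 0.0447). It also passed in a fit on the vehicle groups alone (adjusted p = 0.0467) and without replicate 1 of odor titled GFP+ (adjusted p = 0.0234).

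The window around the annotated start of Olfr536 is shown because this receptor differed most between the sorts. It lies at chr7:140507269-140507568 on the minus strand of GRCm38.p6 in RefSeq, from 250 bases before the start of the gene model to 50 bases after it. Capitals mark the matches of CCCNNGGG, the core of the site that Ebf transcription factors, regulators of olfactory neuron genes, are known to bind.
Olfr536: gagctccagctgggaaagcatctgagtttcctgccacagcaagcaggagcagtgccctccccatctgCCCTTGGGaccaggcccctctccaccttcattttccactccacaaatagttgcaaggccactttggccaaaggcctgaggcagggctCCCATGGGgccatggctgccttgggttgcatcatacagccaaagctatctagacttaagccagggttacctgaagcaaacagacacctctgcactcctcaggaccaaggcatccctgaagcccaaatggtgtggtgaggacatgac

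RefSeq held such a window for 71 of the 77 genes, and 6 had none. In 59 of the 71 the gene model begins at the coding start, so that the window does not reach the promoter, and in 12 it begins at a transcript start. CCCNNGGG, searched on both strands, stood in 7.04% of these 71 windows, against 13.4% of all 27025 windows and 2.76% of the 869 of other odorant receptors. TAATTA, a letter pattern that Lhx2 and other homeodomain factors bind, stood in 14.1%, against 5.31% of all windows and 19.1% of the other receptors'. TAATGA, another homeodomain pattern, stood in 29.6%, against 9.99% of all windows and 28.7% of the other receptors'. TAATTA and TAATGA matches can overlap each other. The windows of all genes were not parted by kind of start. Among the 12 transcript-start windows of these receptors, Olfr536 with them, CCCNNGGG stood in 2, TAATTA in 1 and TAATGA in 6. Among the 59 coding-start windows the counts were 3, 9 and 15. A match is a description of the letters and no evidence that a factor binds there.

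Other receptors of the stretch Olfr522 to Olfr541 were lower in titled GFP+ by differing amounts. Olfr522 (MOR103) averaged 10.55 ± 0.66 in odor titled GFP+, against 15.12 ± 0.21 in odor titled GFP-, and 11.06 ± 0.58 in vehicle titled GFP+, against 15.24 ± 0.39 in vehicle titled GFP- (SD, n = 4). Its differences were -4.57 (SE 0.31, adjusted p = 7.17e-09) in odor and -4.18 (SE 0.31, adjusted p = 2.34e-08) in vehicle. All 4 receptors of family MOR251 were called lower in each treatment, with medians of -2.79 in odor and -2.06 in vehicle. Among them Olfr527 had 7.91, 7.70, 8.84 and 8.62 in odor titled GFP+, against 12.29, 12.42, 12.42 and 11.71 in odor titled GFP-, groups that lie well apart (difference -3.94, adjusted p = 8.28e-07). Its vehicle difference was -3.57 (adjusted p = 2.88e-06). The MOR253 receptors split: Olfr535 differed by -2.45 in odor and -2.51 in vehicle, and Olfr541 by -1.21 in odor (adjusted p = 0.000883) and -1.46 in vehicle (adjusted p = 0.000148). Olfr538 averaged 9.64 ± 0.81 in odor titled GFP+, against 10.58 ± 0.19 in odor titled GFP- (difference -0.94, adjusted p = 0.0362), and its vehicle difference of -0.78 was not called (adjusted p = 0.0899). The odor call of Olfr538 was lost in 7 alternative settings, among them without replicate 1 of odor titled GFP+ (-0.59, adjusted p = 0.118) and in a fit on the odor groups alone (adjusted p = 0.0952). Its vehicle difference was called with arrays centred on their medians (adjusted p = 0.0044) and in a fit on the vehicle groups alone (adjusted p = 0.0234). It was also called without replicate 1 (adjusted p = 0.0220) or replicate 2 (adjusted p = 0.0434) of odor titled GFP+. Olfr539, taken up after its values were seen because it was called in the other direction, differed by 0.60 in odor (adjusted p = 0.120) and 0.92 in vehicle (adjusted p = 0.0213).

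The stretch Olfr693 to Olfr716 is led by family MOR283. Of its 12 receptors 9 were called lower and 0 higher in each treatment, with medians of -2.35 in odor and -2.19 in vehicle. Olfr695 had 10.81, 11.65, 11.89 and 11.84 in odor titled GFP+, against 15.05, 14.83, 14.58 and 15.34 in odor titled GFP-. In vehicle it had 11.40, 12.18, 11.72 and 12.20 in titled GFP+, against 14.86, 14.98, 15.17 and 15.17 in titled GFP-. Its signal was thus lower in every library titled GFP+ than in any titled GFP-, by -3.40 (SE 0.24, adjusted p = 1.01e-08) in odor and -3.17 (SE 0.24, adjusted p = 2.59e-08) in vehicle.

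The first 6 MOR283 genes in reference order, Olfr693 to Olfr699, were called lower in each treatment, and from Olfr700 to Olfr706 called and uncalled receptors stand mixed. Olfr703 differed by -3.17 (adjusted p = 3.49e-07) in odor and -3.99 (adjusted p = 2.15e-08) in vehicle, and Olfr705 by -3.58 (adjusted p = 2.39e-09) in odor and -3.21 (adjusted p = 1e-08) in vehicle. Next to them, Olfr706 had 8.27, 9.24, 7.97 and 7.48 in odor titled GFP+, against 8.42, 8.55, 8.79 and 7.58 in odor titled GFP-, groups that overlap fully. Its difference was -0.09 in odor (95% interval -0.91 to 0.73) and -0.09 in vehicle (95% interval -0.92 to 0.73). Olfr700, near the floor, was above it in 4 of 16 libraries, and its differences of -0.31 in odor and 0.57 in vehicle were not called.

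The other families of that stretch, MOR260 and MOR263, moved less. Of 5 MOR260 receptors 2 were called lower in odor and 1 in vehicle. Olfr715 of this family averaged 7.71 ± 0.76 in odor titled GFP+, against 7.73 ± 0.26 in odor titled GFP-, and 7.87 ± 0.27 in vehicle titled GFP+, against 7.73 ± 0.24 in vehicle titled GFP-. Its differences were -0.03 (95% interval -0.62 to 0.56) in odor and 0.13 (95% interval -0.46 to 0.72) in vehicle. Neither MOR263 receptor was called in either treatment without a block and with the signals as deposited. Olfr713 of this family, named after its values were seen, differed by 1.12 in odor (adjusted p = 0.0614) and 0.89 in vehicle (adjusted p = 0.154). Its odor difference was called higher with the pool as a block, with quantile normalization and with arrays centred on mature neuron markers. Olfr711 (MOR103), named after its values were seen, was called higher in vehicle at 0.96 (adjusted p = 0.0378) and not in odor, at 0.74 (adjusted p = 0.100).

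The stretch Olfr470 to Olfr519 is dominated by family MOR204, with 28 of the 77 genes, and this family held the widest range of sort differences. In odor 17 of the 28 were called lower and 2 higher, and in vehicle 15 lower and 5 higher. Olfr481 was listed at 4.77, 3.09, 4.55 and 4.78 in odor titled GFP+, against 9.15, 8.10, 10.05 and 10.52 in odor titled GFP-. In vehicle it was at 4.62, 3.67, 4.54 and 4.72 in titled GFP+, against 9.59, 8.42, 10.17 and 9.75 in titled GFP-. No library titled GFP+ was above the floor and every library titled GFP- was, so its fold is a bound: at least 17.1-fold lower in odor (adjusted p = 4.98e-07) and at least 18.8-fold lower in vehicle (adjusted p = 6.11e-07). Here and below such a bound sets the mean of the brighter group against the floor of the dimmer libraries.

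Olfr472, Olfr490, Olfr491 and Olfr494 of the same family were also far lower. Olfr491 had 8.06, 9.05, 8.62 and 9.09 in odor titled GFP+, against 13.35, 13.18, 13.30 and 13.54 in odor titled GFP-, groups that lie apart (difference -4.64, SE 0.24, adjusted p = 2.8e-10). Its vehicle difference was -3.99 (SE 0.24, adjusted p = 1.58e-09). Olfr472 differed by -3.99 (SE 0.24, adjusted p = 1.47e-09) in odor and -4.20 (SE 0.24, adjusted p = 8.07e-10) in vehicle. Olfr490, above the floor in 4 of its 8 libraries titled GFP+, differed by -3.99 (adjusted p = 9.81e-06) in odor and -3.95 (adjusted p = 1.19e-05) in vehicle. Differences were smaller in other receptors of the family, among them Olfr470, which differed by -1.17 (adjusted p = 0.0029) in odor and -0.94 (adjusted p = 0.016) in vehicle. The vehicle call of Olfr470 was lost without replicate 4 of vehicle titled GFP- (-0.71, adjusted p = 0.0587). Olfr474, above the floor in 3 libraries, was called lower in odor (-0.88, adjusted p = 0.0109) and not in vehicle (-0.34, adjusted p = 0.338).

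With the signals as deposited, Olfr487 and Olfr495 were called higher in titled GFP+ in both treatments, which held for no other of the 77 receptors. With arrays centred on mature neuron markers, Olfr483, Olfr486, Olfr498, Olfr539 and Olfr711 were called higher in both treatments as well. Olfr487 had 8.41, 9.92, 9.16 and 9.59 in odor titled GFP+, against 4.98, 4.56, 5.47 and 5.57 in odor titled GFP-. In vehicle it had 9.24, 10.93, 9.43 and 8.83 in titled GFP+, against 4.89, 5.65, 5.16 and 5.31 in titled GFP-. It was above the floor in all 8 libraries titled GFP+ and in 1 of 4 libraries titled GFP- of each treatment. The difference was 4.13 (SE 0.39, adjusted p = 4.32e-07) in odor and 4.35 (SE 0.39, adjusted p = 2.4e-07) in vehicle, with pools between 3.42 and 5.37. Olfr495 had 7.88, 9.26, 8.62 and 9.16 in odor titled GFP+, against 5.54, 5.02, 5.61 and 4.48 in odor titled GFP-. In vehicle it had 9.44, 10.29, 8.25 and 8.45 in titled GFP+, against 5.73, 4.88, 4.53 and 5.54 in titled GFP-. These groups do not overlap either. Olfr495 was above the floor in all 8 libraries titled GFP+, but in 1 of 4 titled GFP- in odor and 2 of 4 in vehicle, so that its differences, like those of Olfr487, are set against values around the floor. The difference was 3.57 (SE 0.42, adjusted p = 6.11e-06) in odor and 3.94 (SE 0.42, adjusted p = 2.06e-06) in vehicle.

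The other receptors called higher in vehicle were less secure. Olfr483 averaged 12.11 ± 0.53 in odor titled GFP+, against 11.07 ± 1.18 in odor titled GFP-, and 12.52 ± 0.29 in vehicle titled GFP+, against 11.19 ± 0.37 in vehicle titled GFP-. Its difference was 1.05 in odor (adjusted p = 0.0934) and 1.33 in vehicle (adjusted p = 0.0396), and it was higher in titled GFP+ in 8 of 8 pools. The vehicle call was lost when arrays were centred on their medians (0.95, adjusted p = 0.0505), and when any single vehicle library except replicate 4 of titled GFP- was left out (adjusted p from 0.0533 to 0.108). The odor difference of Olfr483 was called with arrays centred on mature neuron markers (1.29, adjusted p = 0.0388). It was also called without replicate 4 of odor titled GFP- (1.38, adjusted p = 0.0273). Olfr498 was called higher in vehicle (1.49, adjusted p = 0.000673) but was above the floor in 0 of 16 libraries, so no fold is given. Its odor difference of 0.61 was not called (adjusted p = 0.133). That difference was called with arrays centred on mature neuron markers (0.85, adjusted p = 0.0303) and without replicate 2 of odor titled GFP+ (0.90, adjusted p = 0.0115). Olfr486, also of MOR204 and named after its values were seen, was above the floor in 1 library and differed by 0.67 in vehicle (adjusted p = 0.0459). Olfr488, high in every library and not called, had 13.11, 13.64, 14.18 and 13.82 in odor titled GFP+, against 13.81, 13.14, 14.28 and 13.92 in odor titled GFP-. Its difference was -0.10 in odor (95% interval -0.64 to 0.44) and 0.34 in vehicle (95% interval -0.20 to 0.88).

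The stretch ends with family MOR268, of whose 6 receptors 4 were called lower in each treatment. Olfr517 had 5.57, 5.79, 6.38 and 6.01 in odor titled GFP+, against 9.77, 9.53, 9.55 and 10.02 in odor titled GFP-, with no overlap (difference -3.78, SE 0.25, adjusted p = 6.55e-09). In vehicle it differed by -4.08 (SE 0.25, adjusted p = 2.9e-09). Olfr519 differed by -0.98 (adjusted p = 0.000322) in odor and -1.15 (adjusted p = 6.42e-05) in vehicle. Olfr512 of this family and Olfr513 (MOR195) were at 3.04 to 4.50 in every library, under the floor throughout, and were not called.

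**Figure D3:**
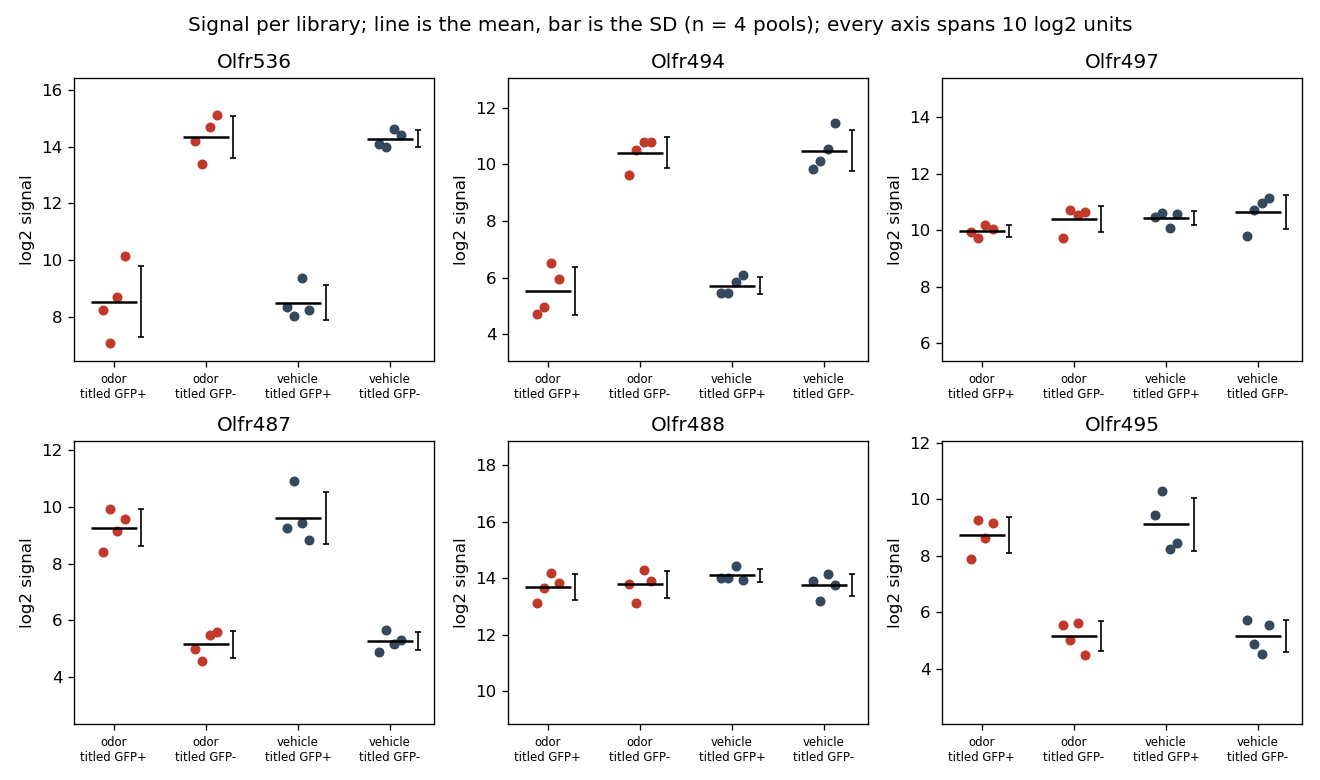
Log2 signal in each library (points), group mean (line) and SD (bar, n = 4 pools) of 6 receptors, with odor in red and vehicle in dark blue and each axis spanning the same number of log2 units around the gene's mean. Olfr536 and Olfr494 lie low in libraries titled GFP+, Olfr487 and Olfr495 lie high there, and Olfr497 and Olfr488 hold nearly level across the 4 groups.

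The receptors that lie outside the label's description were read separately. Olfr692, a class I name, had 5.87, 6.20, 5.94 and 5.97 in odor titled GFP+, against 7.93, 9.40, 6.87 and 7.32 in odor titled GFP-. The groups do not overlap, and the difference was -1.89 (SE 0.39, adjusted p = 0.00193) in odor and -1.74 (SE 0.39, adjusted p = 0.0041) in vehicle. Olfr503 and Olfr504, also class I by name, were above the floor in 0 of 16 libraries. Olfr503 was called lower in odor (-0.61, adjusted p = 0.0261), a call lost in 6 alternative settings, among them centring on mature neuron markers (-0.36, adjusted p = 0.278) and without replicate 3 of odor titled GFP+ (-0.48, adjusted p = 0.0808). Olfr504 was not called. Olfr720 on chromosome 14 had 8.57, 8.48, 9.36 and 10.21 in odor titled GFP+, against 11.54, 11.28, 12.86 and 12.65 in odor titled GFP- (difference -2.93, SE 0.41, adjusted p = 4.25e-05), and differed by -3.02 in vehicle (SE 0.41, adjusted p = 3.31e-05). Olfr520, the first gene in reference order on chromosome 7, is a class II receptor (MOR101) and lies inside the label. It was above the floor in all 8 libraries titled GFP- and in 0 titled GFP+. It was at least 7.90-fold lower in odor (adjusted p = 9.03e-06) and at least 7.16-fold lower in vehicle (adjusted p = 3.71e-05). Without Olfr692, Olfr503, Olfr504 and Olfr720, the 4 receptors outside the label, 46 of 73 were called lower and 2 higher in odor, and 43 lower and 7 higher in vehicle.

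Neighbouring receptors often parted. Over 71 pairs next to each other in the order of these genes, the median absolute gap between their sort differences, averaged over treatments, was 1.62. Over all 1023 pairs of genes in the same stretch it was 1.83, and over all 2926 pairs of the 77 it was 1.80. Pairs share genes, so these are descriptions. The medians include the 7 genes that were never above the floor. Gaps with such genes were narrow in some pairs (0.08 for Olfr512 with Olfr513) and wide in others (3.92 for Olfr498 with Olfr502). Olfr494 and Olfr495 were farthest apart, with mean sort differences of -4.83 and 3.75. Values around the floor enter on both sides. Olfr494 was above it in 2 of 4 libraries titled GFP+ in odor and 4 of 4 in vehicle. Olfr495 was above it in 1 of 4 libraries titled GFP- in odor and 2 of 4 in vehicle. Olfr494 had 4.73, 4.95, 6.53 and 5.95 in odor titled GFP+, against 9.61, 10.52, 10.78 and 10.77 in odor titled GFP-, the reverse of its neighbour (difference -4.88, SE 0.40, adjusted p = 6.79e-08). The next widest pairs were Olfr536 with Olfr538 and Olfr527 with Olfr530, each a strongly lower receptor beside a weakly lower or uncalled receptor.

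Some receptors alike in sequence at their start differed in their sort differences. The 300-base windows of 862 pairs within a stretch were aligned end to end, and their identity had a median of 61.3%. Of the 11 pairs with an identity of 80% or more, 3 hold Olfr485 or Olfr498, which were never above the floor and whose gaps are not read. In the other 8 pairs, from 13 genes, the gap in mean sort difference had a median of 2.32 and ran from 0.58 to 4.50, and it was over 2 in 5 pairs. In the 630 pairs under 80% with both genes above the floor in some library the median gap was 1.80. Probes of the array could be shared between receptors this alike. Probe sequences were not used here, and their part in these values was not tested.

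The windows of 3 such pairs are shown because they set like sequence beside like or unlike sort differences. All begin 250 bases before the coding start in RefSeq GRCm38.p6, and capitals mark bases that are not identical in the alignment of the pair. Olfr494 (chr7:108367242-108367541, plus strand) and Olfr497 (chr7:108422323-108422622, plus strand) share 88.3% of the 300 letters of each window.
Olfr494: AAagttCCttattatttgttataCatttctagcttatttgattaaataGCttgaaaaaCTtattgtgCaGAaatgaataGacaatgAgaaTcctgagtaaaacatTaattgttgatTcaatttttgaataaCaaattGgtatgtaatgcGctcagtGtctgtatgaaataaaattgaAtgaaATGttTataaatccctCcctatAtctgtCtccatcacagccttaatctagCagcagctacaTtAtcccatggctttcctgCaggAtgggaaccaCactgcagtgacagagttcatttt
Olfr497: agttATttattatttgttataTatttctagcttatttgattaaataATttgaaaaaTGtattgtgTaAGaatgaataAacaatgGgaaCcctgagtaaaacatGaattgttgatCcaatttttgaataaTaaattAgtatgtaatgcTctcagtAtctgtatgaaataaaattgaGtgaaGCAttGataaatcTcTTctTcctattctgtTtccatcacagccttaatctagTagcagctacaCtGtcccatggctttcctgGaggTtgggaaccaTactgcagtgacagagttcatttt
Olfr487 (chr7:108212478-108212777, minus strand) and Olfr488 (chr7:108256087-108256386, minus strand) share 87.7%.
Olfr487: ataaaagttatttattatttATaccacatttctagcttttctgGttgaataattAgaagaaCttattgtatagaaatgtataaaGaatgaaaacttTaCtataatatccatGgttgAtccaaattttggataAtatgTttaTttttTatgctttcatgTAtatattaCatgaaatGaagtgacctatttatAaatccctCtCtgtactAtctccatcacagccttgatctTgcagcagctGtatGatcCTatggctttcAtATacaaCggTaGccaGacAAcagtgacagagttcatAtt
Olfr488: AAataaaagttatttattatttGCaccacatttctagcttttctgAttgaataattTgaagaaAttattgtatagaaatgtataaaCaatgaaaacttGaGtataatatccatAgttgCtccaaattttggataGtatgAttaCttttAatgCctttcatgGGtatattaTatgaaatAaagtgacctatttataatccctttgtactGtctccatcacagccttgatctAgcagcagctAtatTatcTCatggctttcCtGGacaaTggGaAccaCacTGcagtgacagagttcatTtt
Olfr472 (chr7:107902469-107902768, plus strand) and Olfr473 (chr7:107933272-107933571, plus strand) share 88.0%.
Olfr472: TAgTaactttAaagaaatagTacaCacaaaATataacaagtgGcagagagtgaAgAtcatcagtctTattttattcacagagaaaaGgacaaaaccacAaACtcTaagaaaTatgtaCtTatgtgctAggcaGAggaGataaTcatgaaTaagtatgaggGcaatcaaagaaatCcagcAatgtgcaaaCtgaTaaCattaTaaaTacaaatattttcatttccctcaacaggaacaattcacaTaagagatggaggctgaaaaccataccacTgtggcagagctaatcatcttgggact
Olfr473: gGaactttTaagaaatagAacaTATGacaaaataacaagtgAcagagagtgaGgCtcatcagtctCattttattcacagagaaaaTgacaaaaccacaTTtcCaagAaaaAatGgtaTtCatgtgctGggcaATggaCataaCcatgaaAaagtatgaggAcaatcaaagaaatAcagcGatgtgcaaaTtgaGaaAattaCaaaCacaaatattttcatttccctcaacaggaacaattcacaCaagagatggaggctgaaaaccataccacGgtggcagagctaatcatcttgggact

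The first pair held a strongly lower and an uncalled receptor. Olfr497, chosen for its likeness to Olfr494, had 9.94, 9.72, 10.19 and 10.05 in odor titled GFP+, against 9.72, 10.73, 10.56 and 10.63 in odor titled GFP-. The groups overlap, and its difference was -0.43 in odor (adjusted p = 0.262) and -0.22 in vehicle (adjusted p = 0.605), while that of Olfr494 was -4.88 in odor and -4.77 in vehicle. The second pair held Olfr487, called higher in titled GFP+ in both treatments, and Olfr488, called in neither, with mean sort differences of 4.24 and 0.12. The third pair moved alike. Olfr473 had 6.04, 6.14, 5.35 and 6.55 in odor titled GFP+, against 9.50, 9.68, 9.06 and 9.63 in odor titled GFP- (difference -3.45, adjusted p = 5.44e-08), next to -3.99 for Olfr472.

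**Figure D4:**
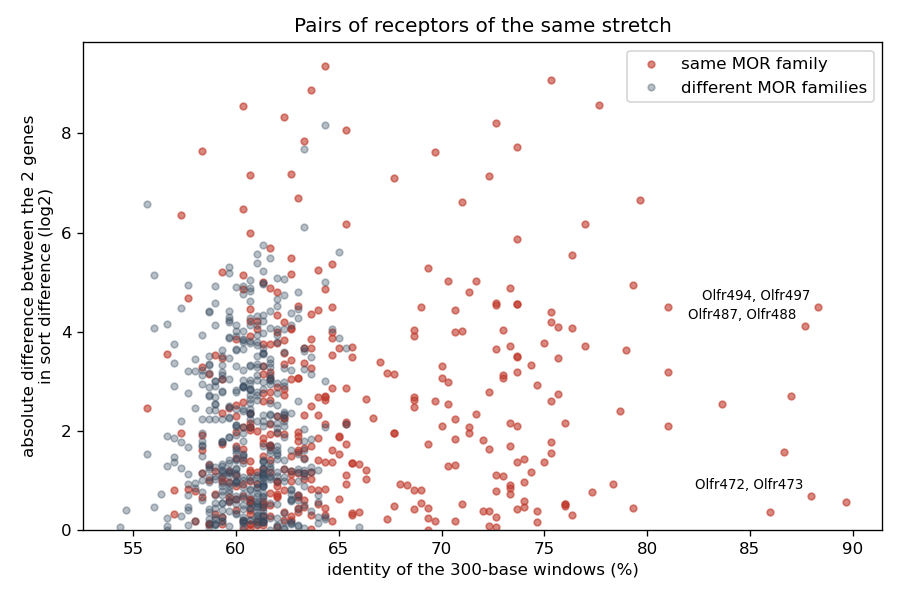
Each point is a pair of receptors of the same stretch, with the identity of their 300-base windows (%) on the horizontal axis and the absolute difference between their sort differences (log2) on the vertical axis, coloured by whether both carry the same MOR family name. Of the 11 pairs at 80% or more, 3 hold a gene that was never above the floor, and the other 8 range from 0.58 to 4.50, with Olfr494 and Olfr497 at the top and Olfr472 and Olfr473 near the bottom.

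Exposure to isoamyl acetate gave no call among the 77 numbered receptors. The comparison asks whether any of them changed with the odor, as receptors of stimulated neurons might. By limma 0 of 77 were called in titled GFP+ (background 0.00901%), 0 in titled GFP- (background 0.018%) and 0 in the interaction of odor and sort (background 0.0045%). At an unadjusted p below 0.05 there were 7 in titled GFP+ (4.83% of all probe sets), 2 in titled GFP- (3.3%) and 2 in the interaction (2.94%). With the replicate number as a block these were 13 in titled GFP+ (6.87% of all probe sets) and 5 in titled GFP- (4.63%), and with the pool as a block 4 in the interaction (4.92%), with 0 called in each. Of the 1002 other odorant receptors, without a block, 83 were below 0.05 in titled GFP+, 83 in titled GFP- and 53 in the interaction. Among them 0 were called in titled GFP+, 1 was called higher in titled GFP- and 1 lower in the interaction.

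The differences between odor and vehicle were small beside those between sorts. In titled GFP+ they ran from -0.94 to 0.82 with a median of -0.21, and 56 of the 77 were below 0. The other odorant receptors had a median of -0.19 in the same comparison. Replicate 1 of odor titled GFP+ held the lowest mean signal of the 77 genes, 7.14, against 7.54, 7.87 and 7.87 in the other odor libraries titled GFP+ and 7.72 to 7.89 in vehicle titled GFP+. It also held the highest neutrophil and macrophage mean and the lowest mature neuron mean of its group, at 14.69 and 15.80. Without it the median was -0.04 and the count of calls stayed at 0. In titled GFP- the differences ran from -0.56 to 0.59 with a median of -0.03, and 42 were below 0.

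Olfr525 had the smallest p in titled GFP+. It had 4.94, 4.94, 5.46 and 5.35 in odor titled GFP+, against 5.51, 6.25, 6.82 and 5.88 in vehicle titled GFP+. The groups do not overlap, as for 1 lower receptor of the 77 and 1.36% of all probe sets (0 receptors and 1.27% of probe sets lay wholly higher), but the odor libraries lie around the floor, above it in 1 of 4. The difference was -0.94 (SE 0.25, unadjusted p = 0.00153, adjusted p = 0.968), and its interaction term was -1.05 (unadjusted p = 0.00868, adjusted p = 1.00). Olfr703 was the highest in odor, with 7.07, 6.23, 8.0 and 7.46 in odor titled GFP+, against 6.46, 6.02, 6.73 and 6.27 in vehicle titled GFP+, groups that overlap (difference 0.82, unadjusted p = 0.0128, adjusted p = 0.968). Olfr700 differed by -0.84 (unadjusted p = 0.0130, adjusted p = 0.968).

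In titled GFP-, Olfr519 had 5.91, 5.91, 6.05 and 6.17 in odor, against 6.63, 6.49, 6.46 and 6.72 in vehicle. It is 1 of 2 receptors whose odor libraries lie wholly below the vehicle libraries in this sort, where 0.982% of all probe sets do, and 0 lie wholly above (1.09% of probe sets). Its difference of -0.56 (SE 0.17, unadjusted p = 0.00377, adjusted p = 1.00) was not called. The other, Olfr541, differed by -0.50 (unadjusted p = 0.046, adjusted p = 1.00).

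The intervals say how large an odor difference the arrays leave room for. The unadjusted 95% interval lay wholly between -1 and 1 for 48 receptors in titled GFP+, 60 in titled GFP- and 22 in the interaction. The median distance from estimate to bound was 0.59 in each sort and 0.83 in the interaction. The outermost bounds were -1.62 and 1.51 in titled GFP+, -1.43 and 1.42 in titled GFP-, and -2.18 and 1.70 in the interaction.

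**Figure D5:**
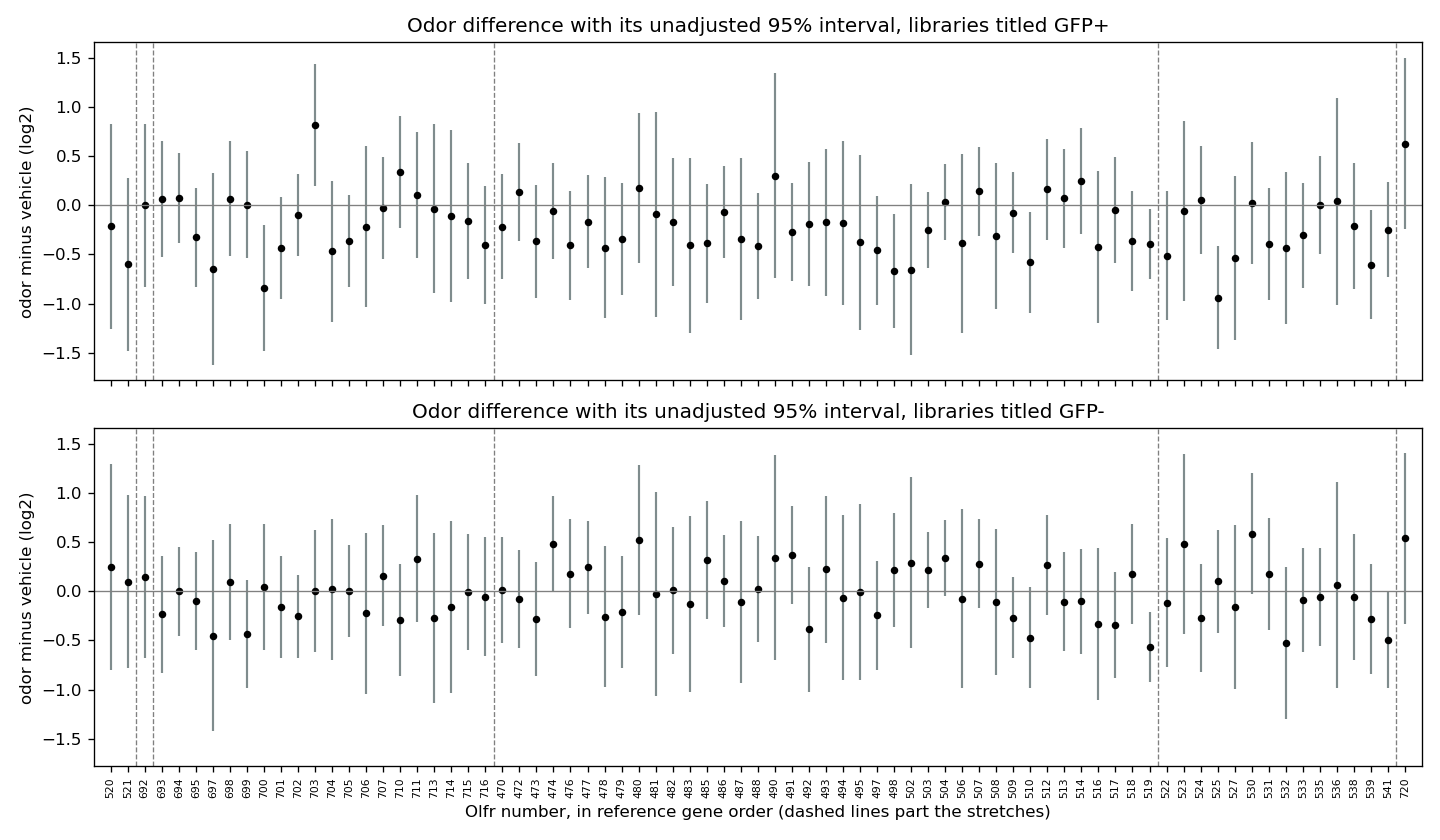
Odor minus vehicle difference (log2) of each of the 77 numbered receptors with its unadjusted 95% interval, in libraries titled GFP+ (upper panel) and titled GFP- (lower panel), with genes in reference order. Points lie between -0.94 and 0.82 above and between -0.56 and 0.59 below, most intervals span 0, and 0 receptors were called.

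Genes of the pathway that carries the receptor signal were read beside the receptors. Of 14 measured genes of olfactory transduction, from the G protein subunit to the cyclic nucleotide-gated and chloride channels, 3 were called lower and 1 higher in titled GFP+ in each treatment, with medians of -0.24 in odor and -0.19 in vehicle. Of 16 regulators of receptor choice 1 was called higher in each treatment and 0 lower, with medians of -0.02 and -0.06. Of 5 measured receptor trafficking genes 0 were called in either treatment. Of 7 activity-dependent neuron genes, S100a5 among them, 5 were called lower in odor and 4 in vehicle, with medians of -1.25 and -1.18. Between odor and vehicle, 1 of these 7 genes was called higher in odor in titled GFP+ and 2 in titled GFP-, with 0 lower.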

How the data were processed

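The 16 Clariom S mouse arrays were hybridised with biotinylated cRNA from 50 to 100 ng of total RNA per the labels' protocols. Each probe set has 1 deposited log2 signal per array, which the submitters' processing notes credit to Affymetrix Expression Console. The sources used here do not give its version, background correction or normalization. Values lie between 1.68 and 19.33, and the number of arrays limits the precision. Array medians were 6.79 to 6.90 in titled GFP+ and 6.42 to 6.52 in titled GFP-, so scaling alternatives were tried. Arrays of a group correlated at 0.985 to 0.994, those of different titled sorts at 0.936 to 0.967, and 0 pairs were identical.

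Of 28846 probe sets, 6640 controls were left out, 5222 of them negative controls. The other 22206 were fitted together with limma 3.58.1 (R 4.3.3): lmFit on 4 group means, eBayes without trend, 12 residual and 4.49 prior degrees of freedom, and Benjamini-Hochberg adjustment over all of them at 0.05. Where a gene had several probe sets the highest mean was taken. Names and gene order came from the platform annotation and RefSeq GRCm38.p6, where 77 of 77 identifiers matched. The labels do not give the build of the array design. Windows were aligned with Biopython 1.88. The fit was tested on simulated data.

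Groups follow the titles, and replicates are separate pools of 3 mice. Both libraries of a pool come from the same mice, and their deviations from group means correlated at 0.16 to 0.40, so a fit with the pool as a block was also run. The members, lists and tests were chosen with earlier results of these data known. Genes named are those with the largest non-overlapping calls in each sort comparison (up to 12 each way), the 3 smallest p-values of each odor comparison, the 5 highest and 3 lowest mean signals, the 3 smallest sort differences among genes above the floor throughout, the 3 widest neighbour pairs, the ends of both number ranges, and class I names. A planned choice by protein identity could not be applied, and start windows were used in its place, chosen after seeing the data. Any other receptor is said to be named after its values were seen or for its likeness to a named receptor, or stands in a full count. Of the annotated receptors in the number ranges, 1 is not reported here. Alternatives were median centring, quantile normalization, centring on mature neuron markers, a filter at the negative controls, eBayes with trend, fits on the compared groups alone, the blocks, and leaving out each library.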

Additional observations from a re-analysis of the deposited data

Results flagged for a closer look

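Among 144 groups of 4 libraries tested, 4 for each of 36 named receptors, 5 had a library that stood apart from its 3 partners by Dixon's 95% criterion, a rule that chance meets in about 1 of 20 groups. Olfr481 was listed at 3.09 in replicate 2 of odor titled GFP+, against 4.55 to 4.78 in the others, all under the floor. Olfr715 stood at 6.58 in replicate 1 of odor titled GFP+, against 7.97 to 8.18, in the library with the lowest mean over the 77 receptors. Olfr483 stood at 12.95 and Olfr488 at 14.44 in replicate 3 of vehicle titled GFP+, against 12.33 to 12.43 and 13.95 to 14.01 in the others. Olfr472 stood at 11.93 in replicate 2 of vehicle titled GFP-, against 12.30 to 12.33. The sources of these values were not tested.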

How the results depend on the processing

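Among receptors called between sorts, 0 reversed under any alternative. In odor 51 were called, 47 to 52 when each library was left out in turn and 49 to 61 under the other alternatives. Of these 49 were lower (45 to 50 and 45 to 59) and 2 higher (2 to 3 when leaving out a library), but centring on mature neuron markers gave 8 higher. In vehicle 52 were called (47 to 54 and 50 to 60), 45 of them lower (42 to 47 and 42 to 57) and 7 higher (4 to 7 when leaving out a library). The 4 higher calls arose without replicate 1 of vehicle titled GFP-, or without replicate 1 or 2 of vehicle titled GFP+. Median centring gave 3 higher in vehicle, losing Olfr711, Olfr483, Olfr486 and Olfr539, and it kept all 49 lower calls of odor and all 45 of vehicle, while 61.6% of all probe sets were called lower in odor and 62.5% in vehicle. It moved the median of all tested probe sets to -0.50 in each treatment, against -0.14 in odor and -0.13 in vehicle as deposited, and that of the 77 receptors to -1.58 in odor and -1.53 in vehicle. The median stayed below 0 under each scaling, at -0.97 in odor and -0.99 in vehicle with arrays centred on mature neuron markers. With the pool as a replicate block 52 were called in odor, with Olfr713 added, and 52 in vehicle, with Olfr707 replaced by Olfr480. Odor and vehicle libraries of the same number, for which the labels give no shared origin, correlated at 0.17 to 0.28 in titled GFP+ and 0.07 to 0.41 in titled GFP-. Of 8 libraries each, 7 and 6 correlated best with their own number, a hint from the data and not the design, and a replicate block on the number gave 0 calls. The counts for odor against vehicle and the interaction were 0 under every alternative run. Besides the vehicle calls of Olfr483 and Olfr470, the odor calls of Olfr503 and Olfr538 were lost under centring on mature neuron markers. The odor calls of Olfr503 and Olfr538 were also lost without replicate 1 or 3 of odor titled GFP+ or replicate 2, 3 or 4 of odor titled GFP-. Centring on mature neuron markers also lost the odor calls of Olfr474 (-0.64, adjusted p = 0.0595) and Olfr716, and the vehicle calls of Olfr707, Olfr477 and Olfr524. Quantile normalization lost the vehicle call of Olfr539. These differences kept their sign, and that of Olfr538 was -0.59 (adjusted p = 0.118) without replicate 1 of titled GFP+. In a fit on the compared groups alone Olfr538 also lost its odor call (adjusted p = 0.0952). In vehicle Olfr700 was called higher without replicate 2 of titled GFP+ (0.89, adjusted p = 0.0320). Olfr530 was called higher in vehicle without replicate 3 of vehicle titled GFP+ or titled GFP-, and without replicate 1 of odor titled GFP+. The causes were not tested. Signal near the negative controls limits Olfr474, Olfr486, Olfr498, Olfr503 and Olfr700.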
